A study of Caenorhabditis elegans with 3 samples.

Results

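Binding of EGL-27 was examined at 10 genes that control G1 entry and S phase in the blast cells of young Caenorhabditis elegans larvae: cdk-4, cyd-1, cye-1, cdk-2, cki-1, lin-35, lin-23, fzr-1, pcn-1 and cdk-1. They are 10 of 19973 protein-coding genes on the nuclear chromosomes. The genes were selected on their role in the cell cycle by name, but with the reproducible EGL-27 peaks at some of them already known, so the count of genes with a peak is a description and no test was run on it. A gene was given every region whose summit (the position of maximum signal) lay in the gene body or within 2000 bp upstream of the start. EGL-27 resembles the MTA proteins, which are part of NuRD, a chromatin remodelling and deacetylase complex, and carries a GATA-like zinc finger. The data were ChIP-seq region lists (the antibody is labelled egl-27) from 3 biological replicates of 1 group, with no second condition. Each replicate was whole L1 larvae of pooled sexes from strain OP177, which carries unc-119(ed3) and the transgene wgIs177. The transgene encodes EGL-27 fused to GFP and FLAG at its C-terminus, and the age of the larvae is labelled as unknown. The larvae were not separated into cell types, so binding in a few cells and weak binding in many cannot be told apart.

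In the worm, cyclin D (CYD-1) and its kinase CDK-4 drive G1 progression, in part by relieving repression through LIN-35, the worm's retinoblastoma protein. Cyclin E (CYE-1) with CDK-2 then promotes S phase. CKI-1, a CIP/KIP-type inhibitor, LIN-23, an F-box protein of an SCF ubiquitin ligase, and FZR-1, a Cdh1-type activator of the anaphase-promoting complex, restrain division. PCN-1 is the replication clamp PCNA, and CDK-1 is the kinase of mitotic entry. Larvae hatch with many blast cells held in G1, which divide when the animal feeds.

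Of the 10 genes, 4 had a summit of the authors' IDR list (regions that passed their irreproducible discovery rate threshold), namely cdk-4, cye-1, lin-23 and pcn-1. Among all protein-coding genes 2.67% had one. The IDR summits of cdk-4, pcn-1 and lin-23 lay upstream of the start, and that of cye-1 lay inside the gene. The authors' signal value of these regions, on their own scale, which the files do not define, was 37.5 at cdk-4, 33.3 at cye-1, 32.7 at pcn-1 and 29.5 at lin-23. All 4 were below the median of the 524 IDR regions, 38.3, at ranks 274, 375, 397 and 496 of the list.

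The sequences around the 3 upstream IDR summits are shown, with that of fzr-1, the highest region of the 10 genes outside the IDR list, for contrast. Each runs 100 bases either side of the summit in the direction of the gene, and is RefSeq sequence of WBcel235 (ce11). Capitals mark matches to the motifs searched. The windows are chrX:13519190-13519390 on the minus strand for cdk-4, chrII:6370256-6370456 on the plus strand for lin-23, chrIV:4049638-4049838 on the minus strand for pcn-1 and chrII:9646162-9646362 on the minus strand for fzr-1.
cdk-4: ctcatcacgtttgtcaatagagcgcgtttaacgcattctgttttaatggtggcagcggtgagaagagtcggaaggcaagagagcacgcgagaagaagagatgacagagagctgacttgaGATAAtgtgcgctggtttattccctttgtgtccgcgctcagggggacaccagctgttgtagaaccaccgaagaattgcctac
lin-23: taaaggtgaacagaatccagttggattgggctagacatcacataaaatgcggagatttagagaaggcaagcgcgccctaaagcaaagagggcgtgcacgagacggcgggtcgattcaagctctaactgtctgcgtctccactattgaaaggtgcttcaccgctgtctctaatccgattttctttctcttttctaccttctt
pcn-1: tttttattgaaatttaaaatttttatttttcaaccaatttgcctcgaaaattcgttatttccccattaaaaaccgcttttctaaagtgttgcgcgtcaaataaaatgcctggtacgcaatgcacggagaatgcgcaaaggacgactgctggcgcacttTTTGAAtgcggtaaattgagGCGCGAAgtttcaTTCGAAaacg
fzr-1: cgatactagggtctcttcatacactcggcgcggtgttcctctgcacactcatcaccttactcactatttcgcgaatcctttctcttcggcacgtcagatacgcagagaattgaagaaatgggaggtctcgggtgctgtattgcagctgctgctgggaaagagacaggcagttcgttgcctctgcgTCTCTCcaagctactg

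None of the 4 IDR windows held the GA repeat GAGAGA on either strand, while 56.5% of all 524 IDR windows of 201 bp and 16.3% of the 201 bp windows ending at protein-coding gene starts held it. It was in 54.6% of the lower-ranked 262 IDR regions, where these 4 lie, and in 58.4% of the higher-ranked 262. Other GA stretches were present. GAGAG or AGAGA, a search added after the windows were seen, matched at cdk-4, cye-1 and lin-23, against 86.1% of IDR windows and 49.7% of promoter windows. The cdk-4 window as printed shows AGAGAG on both sides of its centre. This repeat is as long as GAGAGA but in the other phase, which the GAGAGA search does not match. The share of IDR windows with AGAGAG was not counted. With 200 bp either side of the summit, cye-1 also held GAGAGA, against 66.6% of IDR windows of that width. The capitals in the fzr-1 window are a GAGAGA match read on the other strand. Of the 29476 regions called on the 3 replicates together that are outside the IDR list, 17.3% held GAGAGA.

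Motifs tied to cell cycle genes were found at pcn-1 alone of the 4. Its window held an E2F core (searched on both strands, as TTCCCGC, as TTGGCGC, as TTGCCGC and as TTCGCGC) from 78 bases downstream of the summit, a match present in 13.4% of IDR windows and 6.29% of promoter windows. It also held 2 matches to the CHR element (TTTGAA or TTCGAA), the nearer from 58 bases downstream, against 26.9% of IDR windows and 56.2% of promoter windows. With 200 bp either side of the summit, cye-1 also held both motifs. Of IDR windows of that width, 20.8% held the E2F core and 55.7% the CHR element. In mammals CHR is bound by the DREAM complex through its LIN54 subunit. GATAA, the core of GATA sites, occurred at cdk-4 alone of the 4, 19 bases downstream of the summit, against 24.8% of IDR windows and 45.6% of promoter windows. The E-box CACGTG (11.3% of IDR windows, 4.23% of promoter windows) and the GC box CCGCCC (11.5% and 5.97%) were in none of the 4. GC content was 50.2% at cdk-4, 48.8% at cye-1, 47.3% at lin-23 and 38.3% at pcn-1, against a median of 47.3% over IDR windows and 32.8% over promoter windows. Only pcn-1, the AT-richest of the 4, lay well below the IDR median.

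The gene for the cyclin D kinase, cdk-4 (WBGene00000406, chromosome X from 13515856 to 13518911, minus strand), had the highest EGL-27 signal of the 10 in the pooled and IDR lists and in replicate 2, while cye-1 was higher in replicate 1 and pcn-1 in replicate 3. Its IDR region ran from 13519112 to 13519467 with the summit 379 bp upstream of the start. The region overlapping it had a signal of 8.30 in replicate 1 (rank 1045 of 30000), 13.2 in replicate 2 (rank 592 of 30000) and 12.8 in replicate 3 (rank 381 of 13516). Its rank was thus within the top 3.48% of each list, the most even of the 4 genes on this percent scale. The scale depends on list length, which differed between replicates. The summit was about as close to another start: F18H3.1, on the opposite strand, begins 752 bp from cdk-4, and the summit lay 373 bp upstream of it. The 2 genes share this region, and it cannot be assigned to either. A second IDR-list region, with a signal of 30.4 (rank 465), lay 1272 bp beyond the downstream end of cdk-4 and so outside its window.

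Its partner cyd-1 (WBGene00000870, chromosome II from 12980591 to 12993117, plus strand), the cyclin D gene, had no IDR summit, and the nearest was 35639 bp upstream of its start. The longer pooled list, called on the 3 replicates together before the IDR threshold, gave it 7 regions with signals of 6.09 to 9.82. Of these 6 lay in introns and 1 lay 988 bp upstream. That upstream region, the highest at rank 8438 of 30000, overlapped a region of replicate 1 (signal 3.03, rank 18910) and no region of replicates 2 and 3. The intronic region 9718 bp downstream of the start overlapped a region in every replicate, at ranks 15354, 16449 and 12113 of 13516 in replicates 1, 2 and 3. The one 11000 bp downstream overlapped regions of replicate 1 (signal 5.91, rank 3617) and replicate 3 (signal 2.86, rank 8139 of 13516), and none of replicate 2. The intronic region 11000 bp downstream of the start held 5 overlapping GAGAGA matches from 43 bases past its summit, with a pooled signal of 9.50. cyd-1 is the longest of the 10 genes, with 12527 bp against a median of 2027 bp over protein-coding genes. The part of window length in its number of regions was not tested.

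The cyclin E gene cye-1 (WBGene00000871, chromosome I from 6780799 to 6784397, plus strand) had its IDR region, from 6781591 to 6781946, inside an intron 970 bp downstream of the start. The intron is 859 bp long and holds a 72 bp gene for a cysteine tRNA (WBGene00022955, from 6781803 to 6781874, the same strand). The summit lay 34 bp upstream of the tRNA gene, and 12 of the 524 IDR summits (2.29%) lay within 100 bp of a tRNA gene. Whether the region belongs to cye-1 or to the tRNA gene was not tested. Its signal was 10.3 in replicate 1 (rank 494), 11.2 in replicate 2 (rank 1061) and 7.14 in replicate 3 (rank 1399 of 13516). A separate region at the cye-1 promoter, 533 bp upstream, was lower in the pooled list, with a signal of 16.0 (rank 2200). It had no overlapping region in replicate 1, a signal of 5.64 in replicate 2 and 7.63 in replicate 3, where it outranked the intronic region at 1233. That promoter window held 2 E2F cores, the nearer 4 bases downstream of the summit, and a GAGAGA match. The neighbouring gene pqn-21 starts 1618 bp from the intronic summit on the other strand.

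The gene for its kinase, cdk-2 (WBGene00019362, chromosome I from 3410013 to 3416368, plus strand), had no IDR summit. The nearest was 330573 bp from its start. Its highest pooled region peaked 71 bp upstream of the start, with a signal of 11.6 (rank 5339). The overlapping region had a signal of 6.99 in replicate 1 (rank 2006) and 6.66 in replicate 2 (rank 7702), and replicate 3 listed no region in the cdk-2 window. In replicate 2 that region peaked inside the gene, 200 bp downstream of the start, and overlapped a second pooled region in a coding exon too. The upstream window of cdk-2 held an E2F core 15 bases from the summit and 2 CHR matches. Among the windows of all pooled regions, 7.54% held an E2F core and 48.0% a CHR match.

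The inhibitor gene cki-1 and the retinoblastoma gene lin-35 had no IDR summit. cki-1 (WBGene00000516, chromosome II from 7811240 to 7812105, plus strand) was the only one of the 10 with no region of the pooled list in its window, where 72.4% of protein-coding genes had at least 1. Replicate 1 listed a region 1823 bp upstream of cki-1 (signal 4.29, rank 9203), and replicates 2 and 3 listed none. The nearest pooled summit lay 407 bp beyond the end of the gene (signal 16.9, rank 1911), and of 4 within 10000 bp upstream the highest had a signal of 20.5 at 9195 bp. cki-1 is also the shortest gene of the 10, at 866 bp, with the shortest window, 2866 bp.

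lin-35 (WBGene00003020, chromosome I from 5807709 to 5815637, plus strand) had a pooled region at its promoter, 169 bp upstream, with a signal of 15.7 (rank 2310). The same site had a signal of 3.15 in replicate 1 (rank 17718) and 6.95 in replicate 3 (rank 1466 of 13516), and no region in replicate 2. The highest region of replicate 1 in the window lay instead 4806 bp downstream of the start (signal 4.98, rank 6143). That of replicate 2 lay 2942 bp downstream (signal 7.95, rank 4148), so each replicate had its highest lin-35 region at a different site.

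lin-23 (WBGene00003009, chromosome II from 6371303 to 6374776, plus strand) was the gene nearest to the IDR threshold. Its IDR region, from 6370178 to 6370533, peaked 947 bp upstream with a signal of 29.5, against 28.9 for the lowest IDR region. It ranked 6729 in replicate 1 (signal 4.82), 1929 in replicate 2 (signal 9.60) and 455 of 13516 in replicate 3 (signal 11.8). Replicate 3 placed it high and replicate 1 far lower, at 22.4% of its list. The summit was nearer to the noncoding RNA gene linc-27, which starts 479 bp from it on the opposite strand. lin-23 also had 2 pooled regions inside the gene, in an intron and a coding exon, with signals of 7.48 and 9.40.

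fzr-1 (WBGene00001510, chromosome II from 9640156 to 9644466, minus strand) came next below the threshold. Its region 1796 bp upstream had a pooled signal of 17.5 (rank 1782), with signals of 5.87 in replicate 1 (rank 3720), 4.95 in replicate 2 (rank 16876) and 9.31 in replicate 3 (rank 804 of 13516). Replicate 2 put a second site, 1290 bp upstream, higher (signal 9.55, rank 1962). Both sites lay over 1000 bp from the start, farther than the upstream summits of cdk-4, lin-23 and pcn-1.

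pcn-1 (WBGene00003955, chromosome IV from 4047937 to 4049448, minus strand), the S phase gene of the group, had its IDR region from 4049560 to 4049915 with the summit 290 bp upstream. No other gene's window held this summit, unlike those of cdk-4, cye-1 and lin-23. Its signal was 6.04 in replicate 1 (rank 3358), 9.19 in replicate 2 (rank 2284) and 14.6 in replicate 3 (rank 268 of 13516), so it too stood highest in replicate 3. A pooled summit lay just outside the window, 12 bp past the downstream end of the gene, with a signal of 7.48.

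cdk-1 (WBGene00000405, chromosome III from 9747472 to 9748852, plus strand), whose product acts at mitosis, had 3 low pooled regions with signals of 8.46 to 9.42. The highest peaked 1974 bp upstream, near the 2000 bp edge of the window. The others lay in a coding exon and in the 3' UTR, where the summit was 20 bp inside the downstream end of the gene. The region 1974 bp upstream overlapped a region of replicate 2 (signal 8.07, rank 3878), whose own summit fell outside the window, and none of replicates 1 and 3. Replicate 3 listed instead a region 164 bp upstream with a signal of 4.41 (rank 3598 of 13516).

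**Figure D1:**
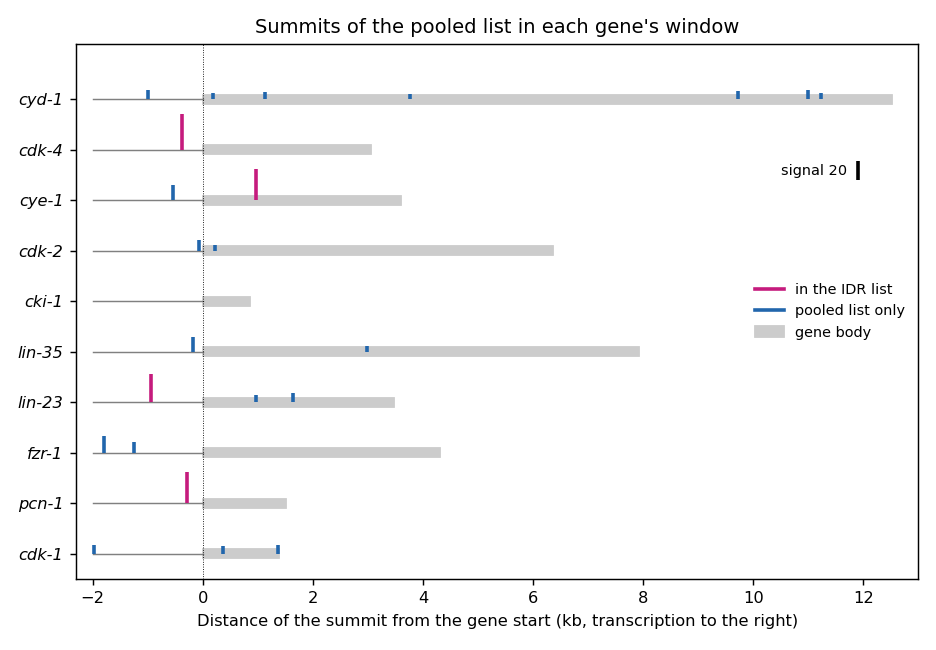
Summits of the pooled list in the window of each gene, from 2000 bp upstream (grey line) through the gene body (grey bar), by distance from the gene start in kb. The height of each line is its pooled signal (scale bar, 20); the IDR summits of cdk-4, cye-1, lin-23 and pcn-1 are the 4 tallest lines, and cki-1 has none.

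Across the 10 genes the pooled list held 23 regions, a median of 2 per gene against 1 over all protein-coding genes. Of the 23, 10 lay upstream, 9 in introns, 3 in coding exons and 1 in a 3' UTR. All 4 IDR regions overlapped a region in every replicate. Nearly all of the 524 IDR regions overlapped one too, 97.3% in replicate 1, 99.0% in replicate 2 and 99.6% in replicate 3. Of the other 19 pooled regions, 2 overlapped a region in every replicate, 8 overlapped regions of 2 replicates, 8 of 1 replicate and 1 of none. These are not all separate sites. The 2 cdk-2 regions overlapped the same region in replicate 1 and in replicate 2. The cyd-1 regions 11000 and 11225 bp downstream of the start overlapped the same region in replicate 3. Pooled regions were present at 9 of the 10 genes. For each replicate's full list the count was 10 of 10 in replicate 1 (73.4% of protein-coding genes), 9 in replicate 2 (72.8%) and 8 in replicate 3 (42.9%). In the full lists a region was thus common among protein-coding genes at large.

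The median of the highest pooled signal per gene was 16.6 over the 10 genes and 7.72 over all protein-coding genes, counting genes without a region as 0. Their windows were longer, with a median of 5536.5 bp against 4027 bp, and the part of length in the difference was not tested. The 10 genes were also selected with IDR peaks at some of them known, and IDR regions are the highest of the pooled list. The median and the shares that follow are therefore a description. cdk-4, cye-1, pcn-1 and lin-23 stood above 98.6%, 98.1%, 98.0% and 97.5% of protein-coding genes. fzr-1 was above 91.8%, lin-35 above 89.8% and cdk-2 above 79.0%, while cyd-1 (69.0%) and cdk-1 (65.9%) were closer to the middle.

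**Figure D2:**
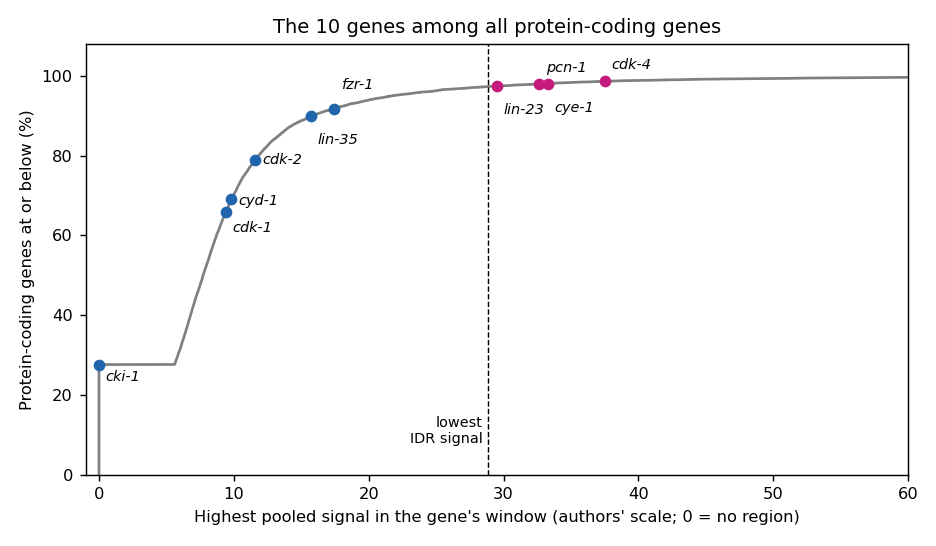
Cumulative share of the 19973 protein-coding genes (grey line, %) by the highest pooled signal in the gene's window (authors' scale, with genes without a region at 0). Points are the 10 genes, with those in the IDR list to the right of the dashed line at its lowest signal, 28.9.

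The replicates did not place the same genes at the top. Among the 524 highest regions of each replicate, as many as the IDR list holds, replicate 1 had 1 of the 10 genes (cye-1, with 2.54% of protein-coding genes), replicate 2 had none (2.47%) and replicate 3 had 3 (cdk-4, lin-23 and pcn-1, with 2.54%). Each of the 4 IDR genes was thus in the top list of 1 replicate. Of the 529 other genes with an IDR summit, 34.6% were in 1 top list and 61.8% in 2 or 3. Of the 277 of these whose IDR summits were all among the lower-ranked 262, 57.0% were in 1 and 36.1% in 2 or 3. The lists rest on the same reads as the IDR list, and no test was made of this difference. Each replicate in turn was set aside, and only IDR regions that the other 2 both had in their top lists were kept. This stricter filter kept 216, 200 and 187 of the 524 IDR regions without replicates 1, 2 and 3. It held 0 of the 10 genes in each case, against 0.991%, 0.986% and 0.921% of protein-coding genes. As each of the 4 IDR genes was in 1 top list, the outcome was fixed beforehand and says nothing of any 1 replicate.

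At the IDR sites themselves the rank of the overlapping region differed between replicates. In replicate 1 it was at 3.48% of the list for cdk-4, 1.65% for cye-1, 22.4% for lin-23 and 11.2% for pcn-1. The median over the lower-ranked 262 IDR regions in that replicate was 2.30%. In replicate 2 the site was at 1.97% for cdk-4, 3.54% for cye-1, 6.43% for lin-23 and 7.61% for pcn-1, against a median of 2.32%. In replicate 3 it was at 2.82%, 10.4%, 3.37% and 1.98% for the same genes in that order, against 4.34%. cye-1 thus stood higher in replicate 1 than in replicate 3, and lin-23 and pcn-1 the other way. The replicate summit farthest from the pooled one lay 64 bp from it at cdk-4, 98 bp at cye-1, 61 bp at lin-23 and 105 bp at pcn-1. Signal scales differ between lists and their depth is unknown, so no mean or SD was taken over replicates.

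**Figure D3:**
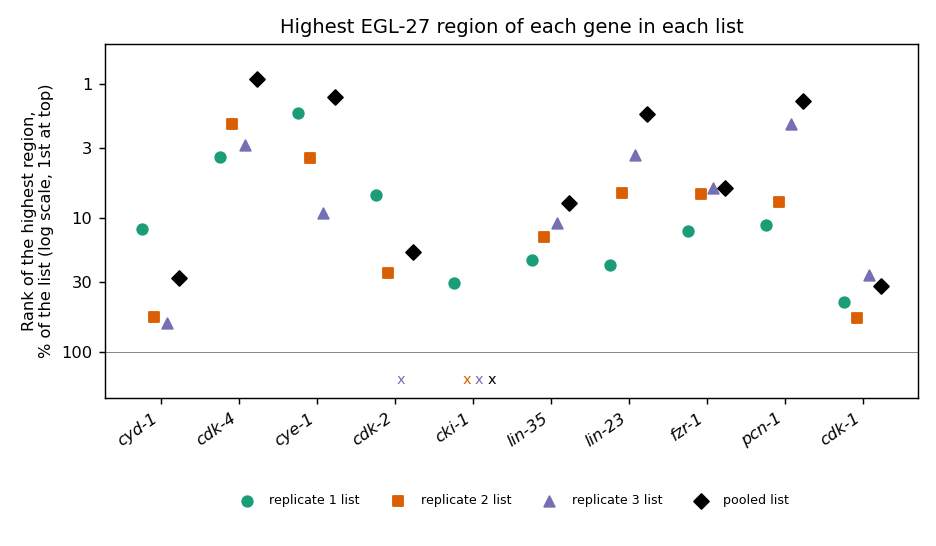
Rank of the highest region in each gene's window as % of the list, on a log axis with the highest regions at the top, for the 3 replicate lists and the pooled list. A cross below the line at 100 marks a list with no region in the window: replicate 3 for cdk-2, and replicates 2 and 3 and the pooled list for cki-1.

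The genes most like cdk-4 in their ranks across the 3 replicates were sought among 6167 genes with a region in all 3 lists, by the distance between log10 ranks. F18H3.1 was at 0, since it shares the cdk-4 regions. The next were act-4, an actin gene, at 0.10 and tatn-1, a tyrosine aminotransferase gene, at 0.13. act-4 had no IDR summit (pooled signal 25.39), and tatn-1 had one (33.3).

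Other cell cycle genes, taken from lists of 73 symbols that all matched the annotation, had an IDR summit at 2 (2.74%, near the 2.67% of all protein-coding genes). The 18 other G1 and S phase regulators had 0, as did 26 DNA replication genes and 21 genes of mitosis and the anaphase-promoting complex. Both were in the list of 8 DREAM and other synMuv B genes, the genetic class of lin-35, or 25% of that list. lin-9, a DREAM subunit gene, had a summit 172 bp upstream (chromosome III from 8904125 to 8904480, signal 35.3, rank 331). Its signal was 8.77 in replicate 1 (rank 848), 5.97 in replicate 2 (rank 10611) and 12.4 in replicate 3 (rank 411). lin-54, the DNA-binding DREAM subunit gene, had one 367 bp upstream (chromosome IV from 13240499 to 13240854, signal 62.4, rank 60), above every one of the 10 genes. It ranked 184 in replicate 1, 24 in replicate 2 and 547 in replicate 3, but the nearest start was that of rpl-12, a ribosomal protein gene. The median highest pooled signal was 21.2 over these 8 genes, 7.88 over the G1 and S phase regulators, 9.17 over the replication genes and 7.23 over the mitotic genes, against 7.72 over all protein-coding genes.

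The tagged gene egl-27 had 7 IDR summits in its own window with signals up to 96.4. Whether the transgene adds copies of this locus to the reads was not tested. Of the 10 genes, 4 lie on its chromosome, the nearest being lin-23 at 460.2 kb.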

How the data were processed

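EGL-27 ChIP-seq regions were analysed from 3 biological replicates of L1 larvae, 1 group, with replicate numbers from the labels. The deposited lists are on ce11, and their signal value and summit offset are the authors' own. Per the deposited file list, replicate and pooled regions (before the IDR threshold) were called against 1 control alignment, and the IDR list was derived from them. Caller and aligner were not given in the sources used here. In these files the 524 IDR regions are the 524 highest of the pooled list. Lists held 30000, 30000 and 13516 regions for replicates 1, 2 and 3 and 30000 for the pooled list. Read depth is unknown, so no counting interval is given. Whether the authors capped 3 of the lists at 30000 is not recorded in them.

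Genes are from Ensembl release 115 (WBcel235, the assembly of ce11), sequence and the tRNA product from RefSeq. Coordinates are 1-based. The same site in another list is a region overlapping by at least 1 base, the nearest summit being taken; for the other cell cycle genes, the highest. Promoter windows for motifs are the 201 bp ending at the start. Ranks order regions by signal within a list. The genes and lists were chosen with earlier results of these data known, so counts stand beside the share over all protein-coding genes and no p-value was computed. All 10 genes were named, with other listed cell cycle genes that had an IDR summit, genes sharing such a summit and the 3 genes most like cdk-4; rpl-12 and the cysteine tRNA gene, which hold or adjoin these summits, were named after their values were seen. Alternatives were other windows, overlaps, list lengths, motif windows and, with each replicate set aside, a filter on the top lists of the other 2. The assignment of summits to windows was tested on simulated data. Python 3.11.15, numpy 2.4.6, pandas 2.3.3 and matplotlib 3.10.9 were used.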

Additional observations from a re-analysis of the deposited data

How the results depend on the processing

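Of 43 alternative values, 23 stayed within 1.5 times the reported count and 20 moved. The count of 4 genes with an IDR summit stayed at 4 or 3 with each other window, any overlapping base or the nearest start (which left out cdk-4). The matching share of protein-coding genes was 1.58% to 2.85%. With 5000 bp upstream, a reach added after seeing the data, the count was 4 (4.11%). The count was 0 in the highest 262 IDR regions (1.26% of protein-coding genes). With the filter on the top lists of 2 replicates it was 0 without replicate 1, 2 or 3 (0.991%, 0.986% and 0.921%). That outcome was fixed beforehand, as each of the 4 genes was in 1 top list. The IDR and pooled lists were not called again without a replicate. The count of 2 other cell cycle genes was 1 with the nearest start (lin-9, with 2.27% of protein-coding genes) and 1 in the highest 262 regions (lin-54, with 1.26%). It was 0 to 1 with the filter on top lists (0.921% to 0.991%). The highest 1000 pooled regions held 4 of the 10 genes (4.84% of protein-coding genes), against 9 for the full list (72.4%). The highest 5000 regions held 6 genes in replicate 1 (21.1% of protein-coding genes), 6 in replicate 2 (20.7%) and 7 in replicate 3 (19.5%), and the highest 1000 of replicate 2 held 1 (cdk-4, with 4.56%). At the 4 IDR summits GAGAGA was at 1 with 200 bp either side (66.6% of IDR windows). GAGAG or AGAGA, added after seeing the data, was at 3 (86.1%). The E2F core was at 0 with 50 bp either side (7.06% of IDR windows) and at 2 with 200 bp (20.8%). The CHR element was at 0 with 50 bp (10.9%) and at 2 with 200 bp (55.7%). Causes were not tested. Depth, which the lists do not give, limits every comparison of signal between replicates, and a gene listed with no region may hold binding below the list's lowest signal.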
